A study of Mus musculus with 4 samples.

Results

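The enzymes that break down amino acids in the liver were followed here by pathway, in mice whose liver carried the SV40 oncoproteins and in wild-type mice. The members were a list of 58 symbols, which name 57 genes because Mut and Mmut are the same gene. On the array, 39 of the 57 genes had a probe set (a set of short probes for 1 transcript) with a single gene symbol, among 8251 such genes in all. These 39 genes had 48 probe sets. Testing required a signal above 41.3 on 2 or more of the 4 arrays, whichever their group, and 37 of the 39 genes met this. Bcat1 and Got1 were too dim and were set aside. Kmo, Kynu, Haao, Acmsd, Uroc1, Ftcd, Acat1, Pcca, Mat2a, Cbs, Cth, Amt, Sds, Prodh, Gpt, Dpyd, Dpys and Upb1 were not analysed here, since no probe set was annotated to them alone.

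Hepatocytes, the main cells of the liver, take up amino acids that exceed the body's needs for protein synthesis. Each amino acid loses its nitrogen, which goes to the urea cycle, and its carbon skeleton enters a pathway of its own that ends in glucose, ketone bodies or the citric acid cycle. Many of these enzymes are made at high levels in mature hepatocytes, and several, such as tyrosine aminotransferase, are known to be raised by glucocorticoids, glucagon and dietary protein.

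Total liver RNA was measured on Affymetrix MG_U74Av2 arrays, with 2 arrays for wild-type mice without a transgene and 2 for PEPCK-TAg transgenic mice. All mice were males of the hybrid strain B6SJL, 50 to 66 days old, and all had been given free access to a diet of 65% protein and 10% carbohydrate for 4 weeks from weaning, so the diet is shared by both groups and was not compared. The series title names the SV40 LT/st proteins, the large T and small t oncoproteins, as the agent to which the liver was exposed, and asks how it altered hepatic gene expression. The transgene is named after PEPCK (Pck1), an enzyme of glucose synthesis whose promoter is active in hepatocytes and is raised by diets poor in carbohydrate. The series calls the arrays duplicates, and whether these were separate animals, pools or repeat hybridisations is not stated, so p-values cover only the spread between arrays, which may be technical.

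The median signal was 66.6 to 68.4 on the wild-type arrays and 77.0 to 84.7 on the PEPCK-TAg arrays. The top of the scale went the other way: 33 and 34 probe sets exceeded a signal of 10000 on the wild-type arrays, against 0 and 20 on PEPCK-TAg 1 and 2. Wild-type 1 and PEPCK-TAg 1 were scanned on 1 day, and the other two arrays each on another day. PEPCK-TAg 2 was alone on its fluidics station and wild-type 2 alone on its scanner type. Both PEPCK-TAg arrays came from 1 chip lot that no wild-type array shared, so lot and group cannot be told apart. The ratio of 3′ to 5′ control signals, a measure of RNA quality, also varied between arrays. For actin it was 4.33 and 3.41 on wild-type 1 and 2, and 3.82 and 3.14 on PEPCK-TAg 1 and 2. For Gapdh it was 5.35 and 3.8, and 4.57 and 2.9, in the same order. Its part in the differences was not tested.

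Some enzymes of amino acid breakdown were lower in PEPCK-TAg liver: 5 of 7 tested members for tyrosine and phenylalanine, 2 of 3 for tryptophan and lysine, the 1 tested for histidine and 4 of the others fell. Of the 37 member genes tested, 12 fell and none rose in limma's moderated test at a Benjamini-Hochberg adjusted p of 0.05, with each gene taken at its brightest tested probe set. Over all 5954 genes tested the same threshold called 3.29% lower and 9.52% higher. The 12 were Tat, Qdpr, Hgd, Fah and Gstz1 of tyrosine and phenylalanine breakdown, Tdo2 of tryptophan, Gcdh of lysine and tryptophan, Hal of histidine, Agxt of glyoxylate and glycine, Gamt of creatine synthesis, Gnmt of methionine and Hibadh of valine. Their mean PEPCK-TAg level was 23.4% to 54.6% of the wild-type level, and all 12 were bright in wild-type liver, with mean signals of 1319 to 13421. At an unadjusted p of 0.05, 21 members were lower and 2 higher in the same limma fit. For counts at this unadjusted p, here and below, no share of all genes is given, so they cannot be set against the array as a whole. The median log2 difference (PEPCK-TAg minus wild-type) over the 37 members was -0.77, a 1.70-fold lower level, beside 0.073 over all genes tested. The groups of arrays did not overlap in 28 members that were lower and 3 that were higher. The 28 include Mat1a, which passed the filter only through its wild-type arrays and so had to lie lower. Over all genes these shares were 26.2% lower and 34.6% higher. A difference of 2-fold or more with no overlap was found in 12 members lower and 2 higher, against 5.63% and 15.0% of all genes. With 2 arrays per group the smallest p of an exact permutation test is 0.333, so none was run on single genes.

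The number of calls rested on the spread estimate and on the arrays kept. Without PEPCK-TAg 1 and without PEPCK-TAg 2, 2 members were called each time (Hal and Tdo2, then Tat and Tdo2), and with no filter on dim probe sets or with the fluidics station as a block, a fit that takes PEPCK-TAg 2 out of the difference, none was (19 and 14 members lower at an unadjusted p of 0.05). With the replicate number as a block the count went up instead, to 20 members lower and 2 higher. These 2 were Csad (adjusted p = 0.0191) and Gatm (adjusted p = 0.019). Under this block calls over the whole array rose as well, from 985 to 1873 of 7877 probe sets. The rise was thus not particular to the members. Fewer probe sets of the whole array were called without PEPCK-TAg 1, without PEPCK-TAg 2, with no filter and with the station block. The drops in these settings were thus not particular to the members either. Gnmt and Gstz1 were not called whichever array was left out (adjusted p from 0.0547 to 0.137 and from 0.0916 to 0.18), and Tat and Hgd were not called without wild-type 2 (adjusted p = 0.0509 and 0.0616).

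**Figure D1:**
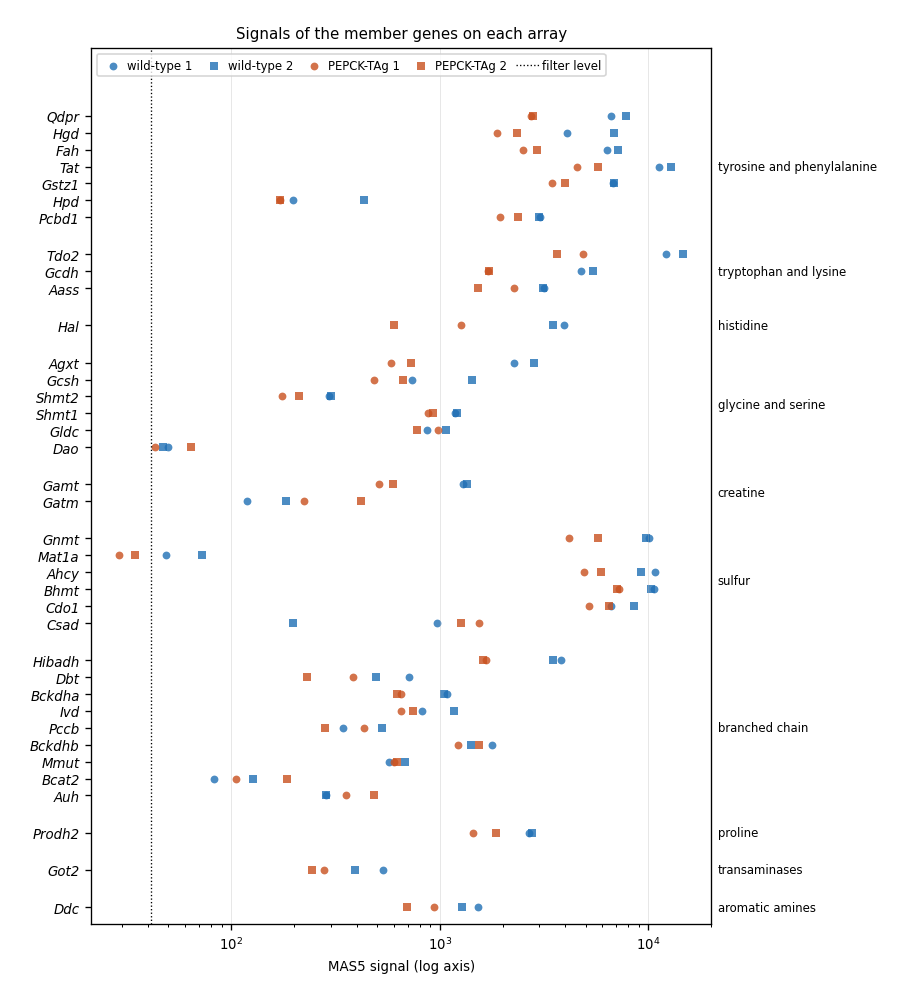
MAS5 signal of each tested member gene at its brightest probe set on the 4 arrays (log axis), grouped by pathway, with circles for replicate 1, squares for replicate 2 and a dotted line at the filter level of 41.3. The wild-type arrays (blue) lie to the right of the PEPCK-TAg arrays (orange) in 28 members and to the left in 3. Mat1a, among the 28, passed the filter only through its wild-type arrays and so had to lie this way.

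**Figure D2:**
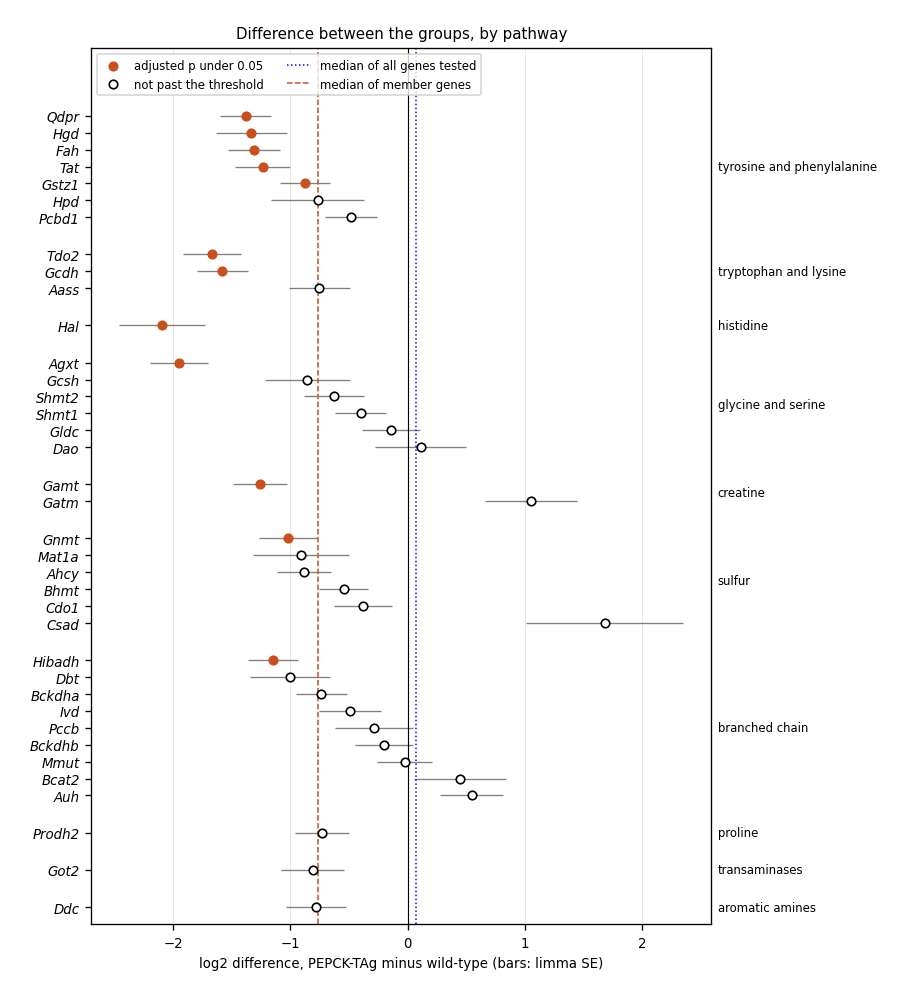
Log2 difference of each tested member, PEPCK-TAg minus wild-type, with limma's standard error as bars, grouped by pathway. Filled points mark the 12 members past an adjusted p of 0.05, all of them below 0; the dashed line is the members' median of -0.77 and the dotted line that of all genes, 0.073.

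The promoters of 4 of these genes are shown because Hal, Agxt and Tdo2 had the lowest differences of the members and Tat is the textbook example of a hormone-controlled enzyme of this kind; they were picked after their values were seen. Each is the 250 bases before the start of the gene from RefSeq (build GRCm38.p6), printed 5′ to 3′ along the gene. Capitals mark matches, on either strand, to any of the motifs searched. The TATA box was searched as TATAAA. The box bound by the factor NF-Y was searched as CCAAT. The core of the sites of HNF1, a liver transcription factor, was searched as GTTAAT. The core of glucocorticoid receptor sites was searched as TGTTCT. The core of the cAMP response element was searched as TGACG. None of the marked matches overlaps another.
Tat (chr8:109990186-109990435, plus strand): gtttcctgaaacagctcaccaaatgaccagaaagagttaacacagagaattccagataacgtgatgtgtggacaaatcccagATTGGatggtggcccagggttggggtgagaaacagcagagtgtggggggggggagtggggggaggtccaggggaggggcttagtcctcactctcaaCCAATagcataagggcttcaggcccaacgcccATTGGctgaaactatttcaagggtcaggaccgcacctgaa
Tdo2 (chr3:81975729-81975978, minus strand): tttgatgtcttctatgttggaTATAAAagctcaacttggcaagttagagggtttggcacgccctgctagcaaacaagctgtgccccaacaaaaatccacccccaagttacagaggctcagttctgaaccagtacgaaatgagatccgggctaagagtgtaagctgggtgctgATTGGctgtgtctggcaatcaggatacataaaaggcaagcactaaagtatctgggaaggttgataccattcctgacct
Hal (chr10:93488518-93488767, plus strand): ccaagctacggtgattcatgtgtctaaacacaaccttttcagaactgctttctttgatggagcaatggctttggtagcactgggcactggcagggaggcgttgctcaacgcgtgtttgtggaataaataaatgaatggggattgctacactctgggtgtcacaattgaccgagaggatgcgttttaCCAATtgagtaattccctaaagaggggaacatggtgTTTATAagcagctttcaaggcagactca
Agxt (chr1:93134990-93135239, plus strand): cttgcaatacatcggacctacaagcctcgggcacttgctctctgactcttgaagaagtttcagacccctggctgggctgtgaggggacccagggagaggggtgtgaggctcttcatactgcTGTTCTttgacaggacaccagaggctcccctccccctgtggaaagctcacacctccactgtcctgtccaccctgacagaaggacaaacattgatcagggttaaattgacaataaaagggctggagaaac

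The Tat window held 3 CCAAT boxes, 2 of them on the opposite strand. Tdo2 and Hal each held 1 match to the CCAAT box and 1 to the TATA box. The TATA match of Tdo2, TATAAA, began 229 bases before the start of the gene. The TATA match of Hal, TTTATA, began 28 bases before the start of the gene and was counted as TATAAA on the opposite strand. Read along the gene, the bases there include TATAAG, which was not searched, so the match does not settle the direction of the box. Agxt held only a glucocorticoid receptor core, 129 bases before its start. A promoter sequence was matched for 33 of the 37 tested members and all 12 that fell, but not for Dbt, Mmut, Cdo1 and Mat1a. A CCAAT box stood in 9 of the 12 windows and in 20 of all 33 members' windows, beside 34.5% of 27025 promoters of the same length. A TATA box stood in 3 of the 12 (13.0% of all promoters), the glucocorticoid receptor core in 1 (16.2%), the cAMP response element core in 1 (17.9%) and the HNF1 core in 0 (6.52%). These are matches of letters at any place in the window, and not measured binding.

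All 7 members of tyrosine and phenylalanine breakdown were lower in PEPCK-TAg liver with no overlap between the groups, and 5 of them fell (median log2 difference -1.24). Qdpr and Pcbd1 regenerate tetrahydrobiopterin, the cofactor with which phenylalanine is turned into tyrosine. Qdpr had wild-type signals of 6643 and 7767 against 2728 and 2794 in PEPCK-TAg liver, 2.60-fold lower (log2 difference -1.38 ± 0.22 SE, adjusted p = 0.0106, n = 2 arrays in each group throughout). Pcbd1 read 3011 and 2995 against 1939.9 and 2382, a difference of -0.48 that did not pass (adjusted p = 0.202). Tat, which takes the amino group off tyrosine in the first step of its breakdown, was among the brightest members.
Tat had wild-type signals of 11197 and 12861 against 4539 and 5710 in PEPCK-TAg liver (2.36-fold lower, -1.24 ± 0.23 SE, adjusted p = 0.0195). Hpd, which makes homogentisate, was the dim member of the pathway at 197.3 and 430.8 against 171.5 and 171.1, with a difference of -0.77 ± 0.40 SE (adjusted p = 0.247). The wild-type arrays of Hpd lay more than 2-fold apart, and the difference was -1.33 without wild-type 1, where it was called (adjusted p = 0.00953), and -0.20 without wild-type 2. The following enzymes, Hgd, which opens the ring of homogentisate, Gstz1, the maleylacetoacetate isomerase, and Fah, the fumarylacetoacetate hydrolase, form a chain of consecutive steps. Hgd read 4078 and 6841 against 1884 and 2336 (2.52-fold lower, -1.33 ± 0.30 SE, adjusted p = 0.0367). Gstz1 read 6752 and 6864 against 3467 and 3981 (1.83-fold lower, -0.87 ± 0.21 SE, adjusted p = 0.0452). Fah read 6338 and 7122 against 2518 and 2926 (2.48-fold lower, -1.31 ± 0.22 SE, adjusted p = 0.0136). For these 3 enzymes too both PEPCK-TAg arrays lay below both wild-type arrays.

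In tryptophan and lysine breakdown, Tdo2 and Gcdh fell and Aass did not pass. Tdo2, the dioxygenase that opens the indole ring and commits tryptophan to the kynurenine pathway, had the highest wild-type signal of all members. Its brightest probe set, made of probes common to a group of transcripts, gave 12169 and 14673 in wild-type liver against 4867 and 3641 (3.17-fold lower, -1.67 ± 0.25 SE, adjusted p = 0.00883). A further Tdo2 probe set read 3910.3 and 2351 against 1039.9 and 393.8 (4.74-fold lower, -2.24 ± 0.48 SE, adjusted p = 0.0308), so both moved the same way. Gcdh, the mitochondrial glutaryl-CoA dehydrogenase on which the breakdown of lysine and tryptophan converges, read 4772 and 5446 against 1697 and 1714. This was a 2.99-fold lower level (-1.58 ± 0.22 SE, adjusted p = 0.00652), with the arrays of each group close together. A dim further Gcdh probe set, of a kind that Affymetrix built with relaxed rules, read 19.2 and 71.8 against 65.2 and 87.8 and did not share the fall (1.03 ± 0.64 SE, adjusted p = 0.324). Aass, the bifunctional enzyme that starts lysine breakdown, read 3156 and 3115 against 2260.2 and 1529.8, with a difference of -0.75 ± 0.26 SE (adjusted p = 0.111).

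Hal, the ammonia lyase that starts histidine breakdown and is known from periportal hepatocytes, had the lowest difference of the members at their brightest probe sets and was the only histidine enzyme measured. Its signals were 3954 and 3492 in wild-type liver against 1261 and 601.4 in PEPCK-TAg liver (4.27-fold lower, -2.09 ± 0.36 SE, adjusted p = 0.0153). The PEPCK-TAg arrays were a little more than 2-fold apart, and the difference was -1.56 without PEPCK-TAg 2, where it was not called (adjusted p = 0.0634), and -2.63 without PEPCK-TAg 1 (adjusted p = 0.0207).

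Of the 6 members of glycine and serine metabolism tested, Agxt fell and the glycine cleavage and serine hydroxymethyltransferase genes did not pass. Agxt, which turns glyoxylate into glycine and alanine into pyruvate, read 2265 and 2816 against 584.2 and 730.7 (3.87-fold lower, -1.95 ± 0.25 SE, adjusted p = 0.00504). Gcsh, the carrier protein of the glycine cleavage system, read 736.3 and 1419.7 against 480.9 and 662.5 (-0.86 ± 0.36 SE, adjusted p = 0.17); it gave -1.33 without wild-type 1, where it was called (adjusted p = 0.00583), and -0.38 without wild-type 2. Gldc, the decarboxylase of the same system, read 869.0 and 1069.5 against 982.9 and 775.1, so its groups overlapped (-0.14, with a 95% interval of limma from -0.74 to 0.46). The hydroxymethyltransferases, which interconvert serine and glycine, both lay lower without passing. Cytosolic Shmt1 gave -0.40 (adjusted p = 0.264) and mitochondrial Shmt2, read by an incomplete probe set, gave -0.63 (adjusted p = 0.158), with no overlap in either. Dao, the D-amino acid oxidase, read 42.9 to 64.0 on all 4 arrays, close to the filter level, and its difference of 0.11 had groups that overlapped.

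The enzymes of creatine synthesis, which consumes glycine, arginine and methyl groups, differed from each other. Gamt, which adds the methyl group in the last step, read 1292 and 1346 in wild-type liver against 509.5 and 595.0 (2.40-fold lower, -1.26 ± 0.23 SE, adjusted p = 0.0168). A further Gamt probe set, whose probes can be shared by related sequences, gave -1.29 (adjusted p = 0.0276). Gatm, the amidinotransferase of the first step, lay the other way at 119.6 and 183.1 against 222.8 and 420.4, and its difference of 1.05 ± 0.39 SE did not pass (adjusted p = 0.132). It ranged from 0.59 without PEPCK-TAg 2 to 1.51 without PEPCK-TAg 1, and without wild-type 2 it was 1.35 and called (adjusted p = 0.0265). The difference between the responses of Gamt and Gatm was not tested.

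In sulfur amino acid metabolism Gnmt alone of 6 tested members fell at its brightest probe set. Gnmt, which uses up excess methyl groups by methylating glycine, read 10071 and 9769 against 4150.2 and 5762 (2.03-fold lower, -1.02 ± 0.25 SE, adjusted p = 0.0426). Ahcy, which splits S-adenosylhomocysteine, had 3 probe sets that differed in their side of the threshold. The brightest, made of probes common to a group of transcripts, read 10698 and 9246 against 4916 and 5902 (-0.88 ± 0.23 SE, adjusted p = 0.0517) and so Ahcy was not among the 12. The others read 7436 and 9288 against 2997 and 4191 (-1.23, adjusted p = 0.0293) and 2934 and 3293 against 946.1 and 847.0 (-1.80, adjusted p = 0.00462). All 3 had both PEPCK-TAg arrays below both wild-type arrays. Bhmt, which remethylates homocysteine with betaine, read 10643 and 10283 against 7217 and 7098 (-0.55 ± 0.21 SE, adjusted p = 0.136), and a dimmer Bhmt probe set gave 0.0015 (adjusted p = 0.999). Mat1a, the liver form of the enzyme that makes S-adenosylmethionine, read only 48.9 and 72.7 against 29.1 and 34.7 and passed the filter only through its wild-type arrays (-0.91, adjusted p = 0.189). In the branch from cysteine to taurine, Cdo1, the cysteine dioxygenase, gave -0.38 (adjusted p = 0.345) and Csad, the cysteine sulfinate decarboxylase, lay higher. Csad read 964.6 and 198.4 in wild-type liver against 1547.7 and 1265.9, and no other member's brightest probe set had so large a ratio between its wild-type arrays. Its difference of 1.68 ± 0.67 SE did not pass (adjusted p = 0.151), and it was 2.82 without wild-type 1, where it was called (adjusted p = 4.61e-06), and 0.54 without wild-type 2.

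The branched-chain pathway was less uniform than that of tyrosine, with a median of -0.29 over 9 tested members and 1 call; the difference between these pathways was not tested. Hibadh, the hydroxyisobutyrate dehydrogenase of valine breakdown, read 3795 and 3493 against 1668 and 1612 (2.22-fold lower, -1.15 ± 0.21 SE, adjusted p = 0.018). The subunits of the branched-chain ketoacid dehydrogenase, the committing step of the pathway, gave different values. Dbt, its transacylase, read 714.9 and 495.7 against 383.1 and 229.8 (2.01-fold lower, with an SE of 0.34 on the log2 scale, adjusted p = 0.105), with a log2 difference from -0.64 without PEPCK-TAg 2 to -1.37 without PEPCK-TAg 1 and a call without wild-type 2 (-1.27, adjusted p = 0.0202). Bckdha, the alpha subunit of its decarboxylase, read 1080.0 and 1045.4 against 651.5 and 623.9 (-0.74 ± 0.22 SE, adjusted p = 0.0769), a tight pair in each group. Bckdhb, the beta subunit, had overlapping groups at 1773 and 1416 against 1227 and 1537 (-0.21, adjusted p = 0.611). Ivd, which acts on the leucine skeleton, gave -0.49 (adjusted p = 0.262). For the genes that carry propionyl-CoA towards the citric acid cycle the groups overlapped: Pccb gave -0.29 (adjusted p = 0.602) and Mmut -0.027, with a 95% interval of limma from -0.59 to 0.53. The mitochondrial aminotransferase Bcat2 gave 0.45 with overlapping groups (adjusted p = 0.485). Auh, the methylglutaconyl-CoA hydratase of leucine breakdown, gave 0.54 (adjusted p = 0.221) at its brightest probe set and -0.64 (adjusted p = 0.308) at a dim one.

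The remaining members were lower with no overlap and did not pass. Prodh2, the hydroxyproline dehydrogenase and the only proline gene measured, read 2672 and 2755 against 1442 and 1853.5 (-0.73 ± 0.23 SE, adjusted p = 0.0916). Got2, the mitochondrial aspartate aminotransferase, was read by a probe set of the kind built with relaxed rules, at 532.6 and 392.1 against 279.3 and 243.1 (-0.81 ± 0.27 SE, adjusted p = 0.102), and was called without wild-type 2 (-1.03, adjusted p = 0.039). Ddc, the decarboxylase that makes dopamine and serotonin from aromatic amino acid derivatives, read 1532 and 1270.5 against 938.9 and 698.2 (-0.78 ± 0.26 SE, adjusted p = 0.0972).

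Sorted by the compartment in which the enzymes work, 9 of 18 cytosolic members fell with a median of -0.90, and 2 of 17 mitochondrial members, Gcdh and Hibadh, with a median of -0.63. Of the 2 peroxisomal members, Agxt fell and Dao did not pass. The difference between the compartments was not tested, and the cytosolic group holds the whole tyrosine pathway. The PEPCK-TAg arrays were not ordered alike in all members. Of the 12 that fell, 9 were higher on PEPCK-TAg 2 than on PEPCK-TAg 1, whereas Hal, Tdo2 and Hibadh were lower there.

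The members that fell were bright. Among genes above the 90th percentile of mean signal over the 4 arrays (1209 and above), 11 of 18 members fell with a median of -1.09, beside 12.4% of all 596 genes there and a median of -0.33. In the band from the 75th to the 90th percentile 1 of 9 members, Gamt, fell, beside 3.58% of 893 genes. None of the 10 members in the lower bands passed. The bands were set after the values were seen. Part of the size of the falls depended on the scaling of the arrays: quantile normalization, which gives all arrays the same distribution, moved the median of all genes from 0.073 to -0.058 and that of the members from -0.77 to -0.55. Under it Tat gave -0.73, Gnmt -0.55 and Gstz1 -0.42, each more than 1.5 times smaller than above, and Gnmt, Gstz1 and Hgd no longer passed (adjusted p = 0.0832, 0.128 and 0.0694) while the other 9 did. Hal and Agxt kept -1.92 and -1.87.

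**Figure D3:**
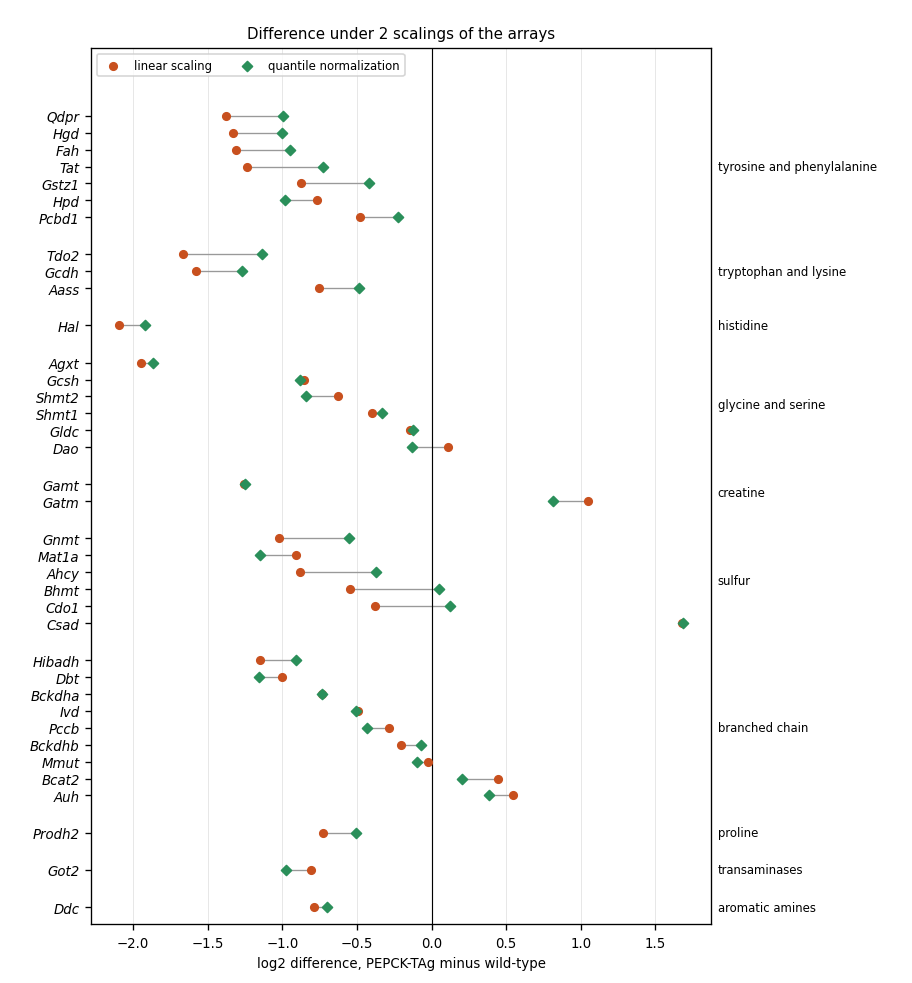
Log2 difference of each tested member under linear scaling (circles) and under quantile normalization (diamonds), joined by a line and grouped by pathway. The diamonds of the bright tyrosine and sulfur enzymes lie nearer to 0, and those of Hal, Agxt and Gamt stay close to their circles.

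Between wild-type 1 and PEPCK-TAg 1, which share a scan day, the members' median was -0.72 over 36 members, and the 12 that fell gave differences from -1.96 to -0.96. These are values of 1 array per group, with no test.

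Markers of other cells and of hepatocytes moved on the same arrays. Of 10 hepatocyte markers tested, 2 fell (Cyp2e1 and Ttr) and none rose, with a median of -0.44. The difference was negative in 8 and positive in 2, Apob (0.40) and Fgb (0.52, with no overlap), neither past the threshold. The summed signal of the hepatocyte list was 87167 to 88217 on the wild-type and 53002 to 68100 on the PEPCK-TAg arrays. The summed signal of all probe sets of each list, dim ones included, was 1758 to 1855 against 7640 to 10479 for 15 myeloid markers and 3966 to 4336 against 10768 to 14805 for 9 erythroid markers. For 12 genes of dividing cells it was 744.4 to 957.0 against 8946 to 9341. Markers that passed the filter only through the PEPCK-TAg arrays had to differ, so they are counted apart. They were 5 of the 12 myeloid markers tested, 2 of 9 erythroid markers and 8 of 12 genes of dividing cells, and all of them rose. Of the rest, 3 of 7 myeloid markers, 4 of 7 erythroid markers and 3 of 4 genes of dividing cells rose, beside 9.52% of all genes. The difference was positive in 8 of the 9 erythroid markers and negative in Alas2 (-0.565, not past the threshold). For the other cell types the sums overlapped or were low: 296.4 to 338.0 against 312.9 to 376.4 for lymphocytes, 1298.8 to 2475 against 1775 to 1991 for endothelium, and 84.5 to 99.5 against 106.4 to 130.6 for cholangiocytes, whose markers Krt19, Krt7 and Epcam were below the filter level. For stellate cells the sum was lower in PEPCK-TAg liver, at 2849 to 3036 against 2465 to 2490. Single markers went both ways: of 4 lymphocyte markers tested 2 rose, both admitted only through the PEPCK-TAg arrays, and 2 were lower with no overlap. Of 5 stellate cell markers 1 rose and 2 were lower with no overlap, and of 2 cholangiocyte markers 1 rose and 1 was lower with no overlap. Of 8 endothelial markers 1 rose. The single endothelial and cholangiocyte markers that rose were also admitted only through the PEPCK-TAg arrays. The cholangiocyte marker that was lower, Cftr, was admitted only through the wild-type arrays and so had to lie lower. The part of these shifts in the lower levels of the amino acid enzymes was not tested, and in bulk RNA fewer hepatocytes and less of these RNAs per hepatocyte cannot be told apart.

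Further genes of amino acid breakdown that are not members were also counted. Of 57 such genes listed, 25 were on the array and 24 were tested, and 3 fell (12.5%, beside 3.29% of all genes). All 3 were bright, with wild-type signals of 2233 to 5850 at their brightest probe sets. Among all genes with a mean signal of 1209 and above, 12.4% fell. The share of this list at that brightness was not counted, so 12.5% does not show an excess over equally bright genes. The falls were Aldh7a1 of lysine breakdown (-1.75, adjusted p = 0.0102), Sardh, the sarcosine dehydrogenase that acts on the product of Gnmt (-1.60, adjusted p = 0.0119), and Ethe1 of sulfide oxidation (-1.05, adjusted p = 0.031). Crym, a ketimine reductase, read 3.8 and 4.6 against 51.6 and 67.2; it was the only one past the threshold in the other direction, and since it passed the filter only through the PEPCK-TAg arrays it is given as values.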

How the data were processed

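The authors deposited 1 MAS5 signal per probe set and array, an intensity on a linear scale (MAS5, of unstated version, per the submitters' processing notes). A 2% trimmed mean of all 12488 probe sets was 250.1 to 250.2 on each array, so the arrays had been scaled to a common level. Run settings such as chip lot, fluidics station and scanner are categories (other than measurements) per the file headers.

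The 66 control probe sets were left out, arrays were brought to their average trimmed mean by 1 factor each (a change of at most 0.102%), values under the 20th percentile (10.6) were set to it and log2 was taken. The filter kept probe sets with at least 2 arrays above the 40th percentile (41.3), 7877 in all. The test was that of limma 3.58.1, run in R 4.3.3 (lmFit, eBayes with an intensity trend, two-sided, 6.60 total degrees of freedom), with Benjamini-Hochberg adjustment over all probe sets tested. The script was tested on simulated data. A gene stands at its tested probe set with the highest mean log2 signal. MAS5 signals compress at the top, which shrinks a difference, and lose meaning near background. There the floor shrinks a difference, but dim arrays of 1 group can also lie far apart. The 2 arrays per group limit the precision.

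Symbols came from the platform annotation, with 1 symbol for 10833 probe sets, several for 396 and none for 1193. The members, lists, pathways and compartments were chosen with earlier results of these data known. Named with full statistics are members past the threshold and the member with the smallest p in each pathway; other tested members are named with their difference, and probe sets of a gene that differ in sign or side of the threshold are each given. Some values of further members are given beside these. Alternatives are in the closing section.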

Additional observations from a re-analysis of the deposited data

How the results depend on the processing

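The 12 members that fell kept a negative difference under every alternative run. The number of members called lower was 12 in all 4 arrays and ranged from 2 to 12 with an array left out (each time 2 without a PEPCK-TAg array, and 12 and 10 without wild-type 1 and 2). It was 0 with no filter and also 0 under a block for fluidics station, settings in which 165 and 0 probe sets of the whole array were called, and 9 to 16 under the other alternatives apart from the replicate block. With the replicate number as a block it was 20, and 2 members were called higher in place of 0. Over the whole array this block called 1873 probe sets, against 985 without it. Fewer than in the main fit were called with a PEPCK-TAg array left out, and more with a wild-type array left out. The labels do not say that the replicate numbers pair animals. Both replicate 1 arrays share a scan day, fluidics station and scanner type, the replicate 2 arrays share none of these, and replicate 1 minus replicate 2 correlated at 0.253 between the groups over 7877 probe sets. The number called higher was 0 to 1 with an array left out (1 each without wild-type 1 and without wild-type 2). The members' median log2 difference was -0.77, between -0.77 and -0.71 with an array left out, and -0.55 under quantile normalization.

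Single differences changed sign in 24 cases, none of a called member. Under quantile normalization Bhmt gave 0.047 and -0.15 at its bright and dim probe sets, Cdo1 0.12 and Dao -0.13. In the arrays of 1 scan day the dim Bhmt probe set gave -0.15, Dao -0.22, Gldc 0.18, Mmut 0.083 and Pccb 0.33. With scanner type as a block the dim Bhmt probe set gave -0.42, Gldc 0.0064, Mmut 0.10 and Pccb 0.027, and without wild-type 2 the values were the same (-0.42, 0.0064, 0.10 and 0.027). With the station as a block, as without PEPCK-TAg 2, Dao gave -0.18, Gldc 0.028 and Pccb 0.020. Without PEPCK-TAg 1 the dim Bhmt probe set gave -0.26. Over the 4 fits with an array left out these differences ranged from -0.42 to 0.42 for the dim Bhmt probe set, -0.18 to 0.40 for Dao, -0.31 to 0.028 for Gldc, -0.16 to 0.10 for Mmut and -0.60 to 0.027 for Pccb. The causes were not tested, except that leaving an array out leaves fewer arrays, that no filter tests 12422 probe sets, and that each block here removes 1 array or a degree of freedom.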

Other observations

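Some probe sets of the members were too dim to be tested and are given as values only. Got1, the cytosolic aspartate aminotransferase, read 3.4 and 3.3 in wild-type liver against 3.3 and 5.3, every value under the floor of 10.6. Bcat1, the cytosolic branched-chain aminotransferase, read 15.9 and 21.0 against 22.3 and 48.5, with 1 array above the filter level. A second Shmt1 probe set read 27.2 and 15.1 against 7.8 and 15.2, and a second Got2 probe set 7.2 and 17.7 against 1.9 and 5.2.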
